A study of Homo sapiens with 18 samples.

Results

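The libraries compared here were those of Kelly and BE2C cells that carried the second hairpin against AHR, titled shAhR_2, and those that carried the first, titled shAhR_1. They were chosen by their titles and number 12 of the 18 libraries of the series, 3 for each hairpin in each line. The remaining 6, 3 per line, carried the empty lentiviral vector pLKO and were read only as the background state. Kelly and BE2C are established human neuroblastoma cell lines, and the title of the series places the study in neuroblastoma with MYCN amplification. All groups were transduced with lentivirus and grown in the same medium, and the labels name the vector as what differs between the groups of a line. The protocols speak of triplicates of collected cells and not of separate cultures or clones, so a p-value measures only how far these libraries scatter, and that scatter may be technical. The hairpin sequences and the level of AHR left by each hairpin were not analysed here.

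AHR encodes the aryl hydrocarbon receptor, a ligand-activated transcription factor that enters the nucleus, pairs with ARNT and binds xenobiotic response elements at genes such as CYP1A1. A short hairpin RNA lowers a transcript by base pairing, and hairpins with different sequences share the intended transcript but can differ in how far they lower it and in which other transcripts they touch. ATAC-seq marks accessible DNA through the insertion of adapters by a transposase, and the reads pile up into peaks at promoters, enhancers and other open sites. Mitochondrial DNA carries no nucleosomes and is readily cut by the transposase, and copies of it that sit in the nuclear chromosomes can take up reads of the same sequence. Sequence around centromeres and amplified segments also collects reads from many copies.

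The hairpins were separated by library-wide values before any locus was considered. Lists held between 60457 and 65740 peaks with shAhR_2 and between 9204 and 24424 with shAhR_1 in Kelly, and between 75798 and 81637 against between 25660 and 45023 in BE2C. Over both lines the shAhR_2 lists held 3.01 times as many peaks (exact two-sided permutation test within lines, p = 0.005, adjusted p = 0.006 over 6 measures). The genome-wide background, which stands for sequencing depth here because the lists do not give reads, was 2.53 times as high with shAhR_2 (exact permutation test, adjusted p = 0.006). The mitochondrial ratio, the highest pileup on the mitochondrial chromosome over that background, was 0.341 times that of shAhR_1 (exact permutation test, adjusted p = 0.006). The smallest p that the 400 arrangements of labels allow is 0.005. No shAhR_2 library overlapped a shAhR_1 library of its line in peak number, background or mitochondrial ratio, so what separates the hairpins in depth or library make-up cannot be told apart from the hairpins themselves. Replicate 1 of Kelly shAhR_1 stood apart, with 9204 peaks and a background of 0.601 overlapping reads, and the counts below over loci and regions are given with and without it.

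**Figure D1:**
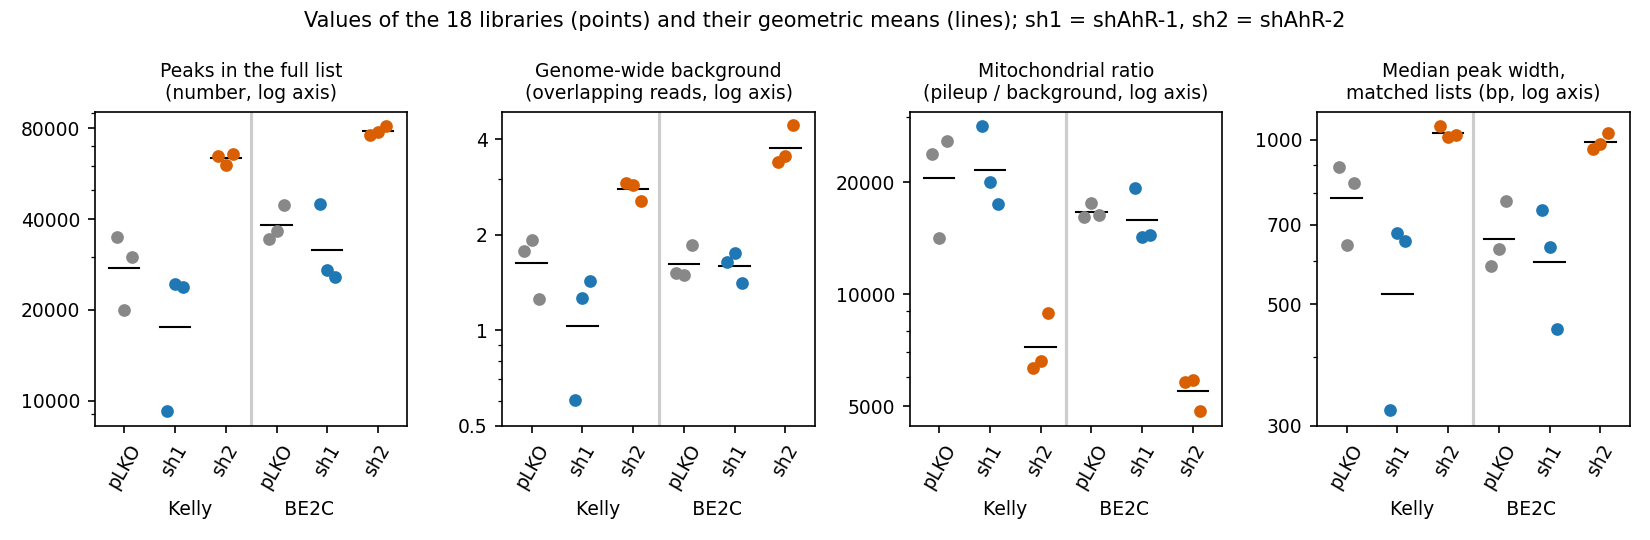
Values of all 18 libraries (points) by line and group on log axes: number of peaks in the full list, genome-wide background in overlapping reads, mitochondrial ratio, and median peak width in base pairs in the lists matched in length. Lines are geometric means of 3 libraries; the shAhR_2 points lie above every shAhR_1 point of their line in peak number, background and width, and below in mitochondrial ratio.

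To compare loci, each list was cut to its strongest peaks by the authors' −log10 p, 9204 in each Kelly library and 25660 in each BE2C library, the lengths of the shortest hairpin lists. At equal length the median peak was still 1.81 times as wide with shAhR_2 (exact permutation test, adjusted p = 0.006), and its median fold over local background was 1.31 times as high (adjusted p = 0.02, exact permutation test). The difference in fold missed the threshold when Kelly shAhR_2 replicate 3 or BE2C shAhR_2 replicate 1 or 2 was left out (exact permutation test, p between 0.055 and 0.06). On average, libraries of the same hairpin shared more covered sequence than libraries of different hairpins. The Jaccard index (the overlap of 2 lists as a fraction of their union, in bases) averaged 0.701 within shAhR_2, 0.419 within shAhR_1 and 0.372 between hairpins in Kelly. The averages for BE2C were 0.742, 0.555 and 0.496. Single pairs within shAhR_1 overlapped those between hairpins, at 0.331 to 0.591 against 0.213 to 0.463 in Kelly. In BE2C they were 0.522 to 0.613 against 0.387 to 0.597. Pairs within shAhR_2 lay above both. The difference of within and between was 0.17 over both lines (one-sided exact permutation test, p = 0.01).

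Merging the 12 shortened lists gave 39804 regions, 15655 with a peak in Kelly, 38005 with a peak in BE2C and 13856 with a peak in both. A peak was present in all 12 lists at 4129 regions. A locus was taken to separate the hairpins in a line when all 3 libraries of 1 hairpin had a peak there and none of the 3 of the other did. In Kelly 624 loci (3.99% of the regions of the line) had the peak with shAhR_2 and 533 (3.4%) with shAhR_1. In BE2C 1280 loci (3.37%) had it with shAhR_2 and 835 (2.2%) with shAhR_1. An exact permutation test of a single locus in 1 line would be of no use, since 3 libraries against 3 cannot go below 0.1.

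Of the 13856 regions seen in both lines, 44 separated the hairpins in the same direction in both, and 0 did so in opposite directions. With shAhR_2 the peak was present at 16 loci (0.115% of those regions), and with shAhR_1 at 28 (0.202%). The lines share no library. Of the 585 Kelly loci with the peak in shAhR_2 that were seen in both lines, 2.74% also separated the hairpins that way in BE2C, where 0.909% of all regions seen in both did. Of the 126 such BE2C loci, 12.7% did so in Kelly, where the background share was 4.22%. Of the 476 Kelly loci with the peak in shAhR_1, 5.88% separated the same way in BE2C, beside a background share of 0.931% there. Of the 129 such BE2C loci, 21.7% did so in Kelly, beside 3.44%. The 16 lay on 7 chromosomes, with 5 on chromosome 3, 4 on chromosome 1 and 3 on chromosome 7, and the 28 lay on 15 chromosomes. In the shortened shAhR_2 lists, chromosome 3 held a mean of 7.45% of the peaks in Kelly and 6.09% in BE2C. Chromosome 1 held 11.6% and 9.08%, and chromosome 7 held 7.44% and 6.92%. Whether the loci favour these chromosomes was not tested.

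Without replicate 1 of Kelly shAhR_1 the Kelly lists could be cut at 23806 peaks, and the counts changed. In Kelly 2600 loci then had the peak with shAhR_2 and 2187 with shAhR_1, and 358 loci separated the hairpins the same way in both lines, 248 with shAhR_2 (0.973% of 25485 regions) and 110 with shAhR_1 (0.432%), while 23 did so in opposite directions. Only 2 of the 16 and 5 of the 28 loci found with all 12 libraries were found again. Of the Kelly loci with the peak in shAhR_2 that were seen in both lines, 14.4% separated the same way in BE2C, beside a background share of 3.34%, and of those of BE2C 29.1% did so in Kelly, beside 6.77%. For shAhR_1 the shares were 7.57% in BE2C, beside 1.66%, and 25.9% in Kelly, beside 5.7%.

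At the 16 loci open with shAhR_2, weaker peaks of shAhR_1 below the end of the shortened lists could be looked for only in part. The full lists of Kelly shAhR_1 replicate 1 and BE2C shAhR_1 replicate 3 are the shortened lists by which the loci were chosen, so they hold none by construction. The list of BE2C shAhR_1 replicate 2 is little longer, with 94.5% of its peaks kept, and held none of the 16. In the longer full lists, 11 of the 16 had a weaker peak in each of Kelly shAhR_1 replicates 2 and 3, and 13 had one in BE2C shAhR_1 replicate 1. Most of these loci were thus not without a peak where a longer shAhR_1 list could show one.

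The locus with the highest lowest fold of this direction lay at chr13:70138914-70139961 on hg19. The fold over local background, the authors' value, was 11.1, 10.5 and 11.2 in the shAhR_2 libraries of Kelly and 9.51, 9.24 and 8.66 in those of BE2C. With shAhR_1, weaker peaks outside the shortened lists had folds of 7.5 and 5.46 in Kelly replicates 2 and 3 and 6.05 in BE2C replicate 1, and the other 3 libraries had none. With pLKO there was no peak in Kelly and a single one of 4.38 in BE2C replicate 1. In peaks called, the shAhR_2 libraries thus stood apart here from the empty vector as well as from shAhR_1. The full pLKO lists were also shorter than those of shAhR_2, at 19984 to 34848 peaks in Kelly and 34343 to 44397 in BE2C. A missing pLKO peak says only that none passed in such a list.

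Next came chr3:42922005-42923076, with folds of 8.58 to 12.5 over the 6 shAhR_2 libraries, and chr1:165226958-165227884, with 8.40 to 11.3. Both had a peak in the full lists of all 3 pLKO libraries of Kelly, with folds of 3.88 to 10.4 at the locus on chromosome 3 and 4.33 to 7.93 at the one on chromosome 1. The others named by the same order were chr3:139048056-139048685, chr3:195474467-195475332, chr3:123698471-123699419, chr3:73736214-73737641, chr7:86272875-86274645, chr1:200859889-200860926 and chr7:39453541-39454557. Over all 16, folds in the shAhR_2 libraries lay between 1.71 and 12.9 and widths between 513 and 1771 bp, with a median of 1043 bp.

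The locus at chr3:73736214-73737641 was 1 of the 2 that were found again without the short Kelly list. Its folds were 10.5, 8.83 and 11.2 with shAhR_2 in Kelly and 9.44, 7.01 and 7.93 in BE2C. With shAhR_1 there was no peak in any full list of Kelly and a single one, of 5.30, in BE2C replicate 1. With pLKO it was 4.33 and 6.64 in Kelly replicates 1 and 3 and 4.90 in BE2C replicate 3, below every shAhR_2 value.

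The other locus found again lay at chr4:49316844-49317356, within 3 Mb of the longest stretch of chromosome 4 without peaks (a stand-in for the centromere, since no annotation of this build was used). It was the only 1 of the 16 with no peak in any of the 4 full shAhR_1 lists that run past the shortened ones. The Kelly shAhR_2 libraries had folds of 7.09, 6.06 and 7.52, and the BE2C shAhR_2 libraries 4.80, 4.34 and 4.19. With pLKO a peak was present in Kelly replicates 1 and 3, at 6.42 and 6.88, and in no BE2C library, so the lines differed in the state of the empty vector there. Local background at this locus was 25.5 times the genome-wide value.

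At the 28 loci with the peak in shAhR_1, the longer shAhR_2 lists could be searched far past the cut. It kept 14% to 15.2% of them in Kelly and 31.4% to 33.9% in BE2C. The cut fell at unlike strengths. In Kelly the lowest −log10 p kept was 4.23 to 13.9 with shAhR_1 and 35.1 to 45.8 with shAhR_2. In BE2C it was 3.68 to 11.7 and 23.5 to 24.6. A peak ranked below the cut was present in all 6 full shAhR_2 lists at 25 of the 28. The folds of the hairpins overlapped at most of them: shAhR_1 lay wholly above shAhR_2 at 9 loci in Kelly, 8 in BE2C and 5 in both. At chr22:21521947-21522554, for example, the folds were 8.27, 9.65 and 6.71 with shAhR_1 and 6.86, 9.11 and 10.4 with shAhR_2 in Kelly, and 6.72, 6.17 and 7.87 against 7.51, 5.50 and 7.19 in BE2C. At this locus rank by −log10 p separated the hairpins and fold did not.

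One locus was lost altogether with shAhR_2. It lay at chr5:134262717-134263068, 352 bp wide, and was the only region in the full lists with a peak in all 6 shAhR_1 libraries and in no shAhR_2 library. The fold was 6.71, 7.70 and 7.23 with shAhR_1 in Kelly and 7.72, 7.04 and 8.96 in BE2C. With pLKO it was 6.08, 6.66 and 6.09 in Kelly and 9.82, 8.67 and 7.37 in BE2C. In each of these 12 libraries the peak was among the 38 strongest of its shortened list, and none of the full shAhR_2 lists, of 60457 to 81637 peaks, held it. The pLKO and shAhR_1 libraries were thus alike in having the peak, and the 6 shAhR_2 libraries stood apart in both lines.

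This peak belongs to a group of 4 between positions 134259810 and 134263702, a stretch known as a nuclear copy of mitochondrial DNA. The first, the second and the last were present in all 18 libraries. Relative to the genome-wide background, which was itself higher with shAhR_2, their summits were lower with shAhR_2. In Kelly the highest pileup of the group, over that background, was 635 ± 103 (SD, n = 3) with shAhR_2 and 1673 ± 579 (SD, n = 3) with shAhR_1. The BE2C values were 409 ± 33 (SD, n = 3) and 878 ± 228 (SD, n = 3). Averaged over the lines the ratio of shAhR_2 to shAhR_1 was 0.432 (exact permutation test, p = 0.005, the smallest possible). Before division the hairpins overlapped. The pileup of the first peak in Kelly was 1642 to 1926 overlapping reads with shAhR_2 and 1406 to 1975 with shAhR_1. In BE2C it was 1422 to 1683 and 1086 to 1740. Peaks on both sides of the lost one were thus still called with shAhR_2. The mitochondrial ratio of the same libraries was 7314 ± 1415 (SD, n = 3) with shAhR_2 and 22009 ± 5679 (SD, n = 3) with shAhR_1 in Kelly. For BE2C it was 5514 ± 577 (SD, n = 3) and 16026 ± 2895 (SD, n = 3). Its part in the lost peak was not tested.

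**Figure D2:**
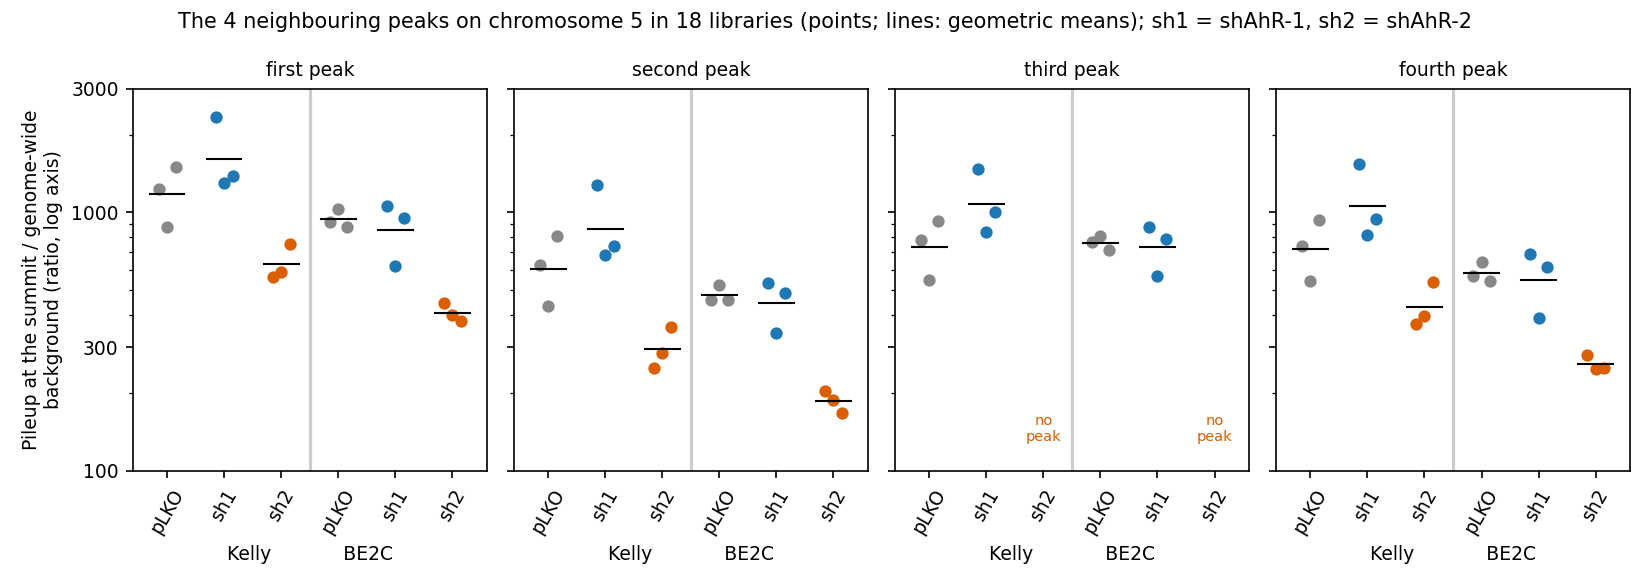
Pileup at the summit over the genome-wide background (ratio, log axis) at the 4 neighbouring peaks on chromosome 5, in each of the 18 libraries by line and group (points; lines are geometric means of 3). All 6 shAhR_2 libraries have the first, the second and the last peak at lower values than the shAhR_1 libraries of their line, and none has the third.

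The remaining loci of the shAhR_1 direction that the rule names were chr13:76343118-76344347, chr3:162066310-162067631, chrX:61910650-61911052, chr11:3675118-3676029, chr22:20325592-20326820, chr17:45213886-45214724, chr12:29191903-29192638 and chr6:145924241-145925001. The peak at chr3:162066310-162067631 had folds of 7.10, 9.36 and 10.3 with shAhR_1 and 8.24, 6.77 and 8.58 with shAhR_2 in Kelly, which overlap, and 10.9, 6.06 and 7.65 against 6.53, 6.39 and 6.24 in BE2C, which also overlap. These loci were chosen by presence in the same lists, so a test by rank is not independent of the choice. By rank of the peaks, chrX:61910650-61911052 did not pass the test (limma, adjusted p = 0.074). The locus at chr11:3675118-3676029 passed (limma, adjusted p = 0.0458) but lost the call in 10 alternatives and kept it in 9. The calls at chr22:21521947-21522554 and, of the other direction, chr7:39453541-39454557 were lost in 9 alternatives each, and that at chr3:42922005-42923076 in 6. Chromosome 22 held 3 of the 28 and chromosome 3 held 4. In the shortened shAhR_1 lists, chromosome 22 held a mean of 1.55% of the peaks in Kelly and 1.41% in BE2C. Chromosome 3 held 7.76% and 5.87%. Local background was high, at least 20 times the genome-wide value, at 4 of the 28 (14.3%) and 2 of the 16 (12.5%). The share over all regions was 0.95%. Near the longest peak-free stretch of a chromosome lay 7 of the 28 (25%, against 5.31% of all regions). All regions here include those seen in a single line, which could not yield such loci.

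The empty vector was mixed at these loci. With pLKO lists cut to the same length, none of the 6 pLKO libraries had a peak at 5 of the 16 shAhR_2 loci and at 3 of the 28 shAhR_1 loci. All 6 had one at 0 of the 16 and 2 of the 28. Over all 39804 regions the shares were 29.4% without and 16.9% with all 6. Only the 13856 regions seen in both lines could yield such loci, so this is an unlike base. Without the short Kelly list, no pLKO library had the peak at 52 of the 248 and 10 of the 110, and all 6 had it at 0 and 9. No share over all regions is given for that setting. The shortest pLKO list of Kelly, with 19984 peaks, was then below the cut and was used whole.

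**Figure D3:**
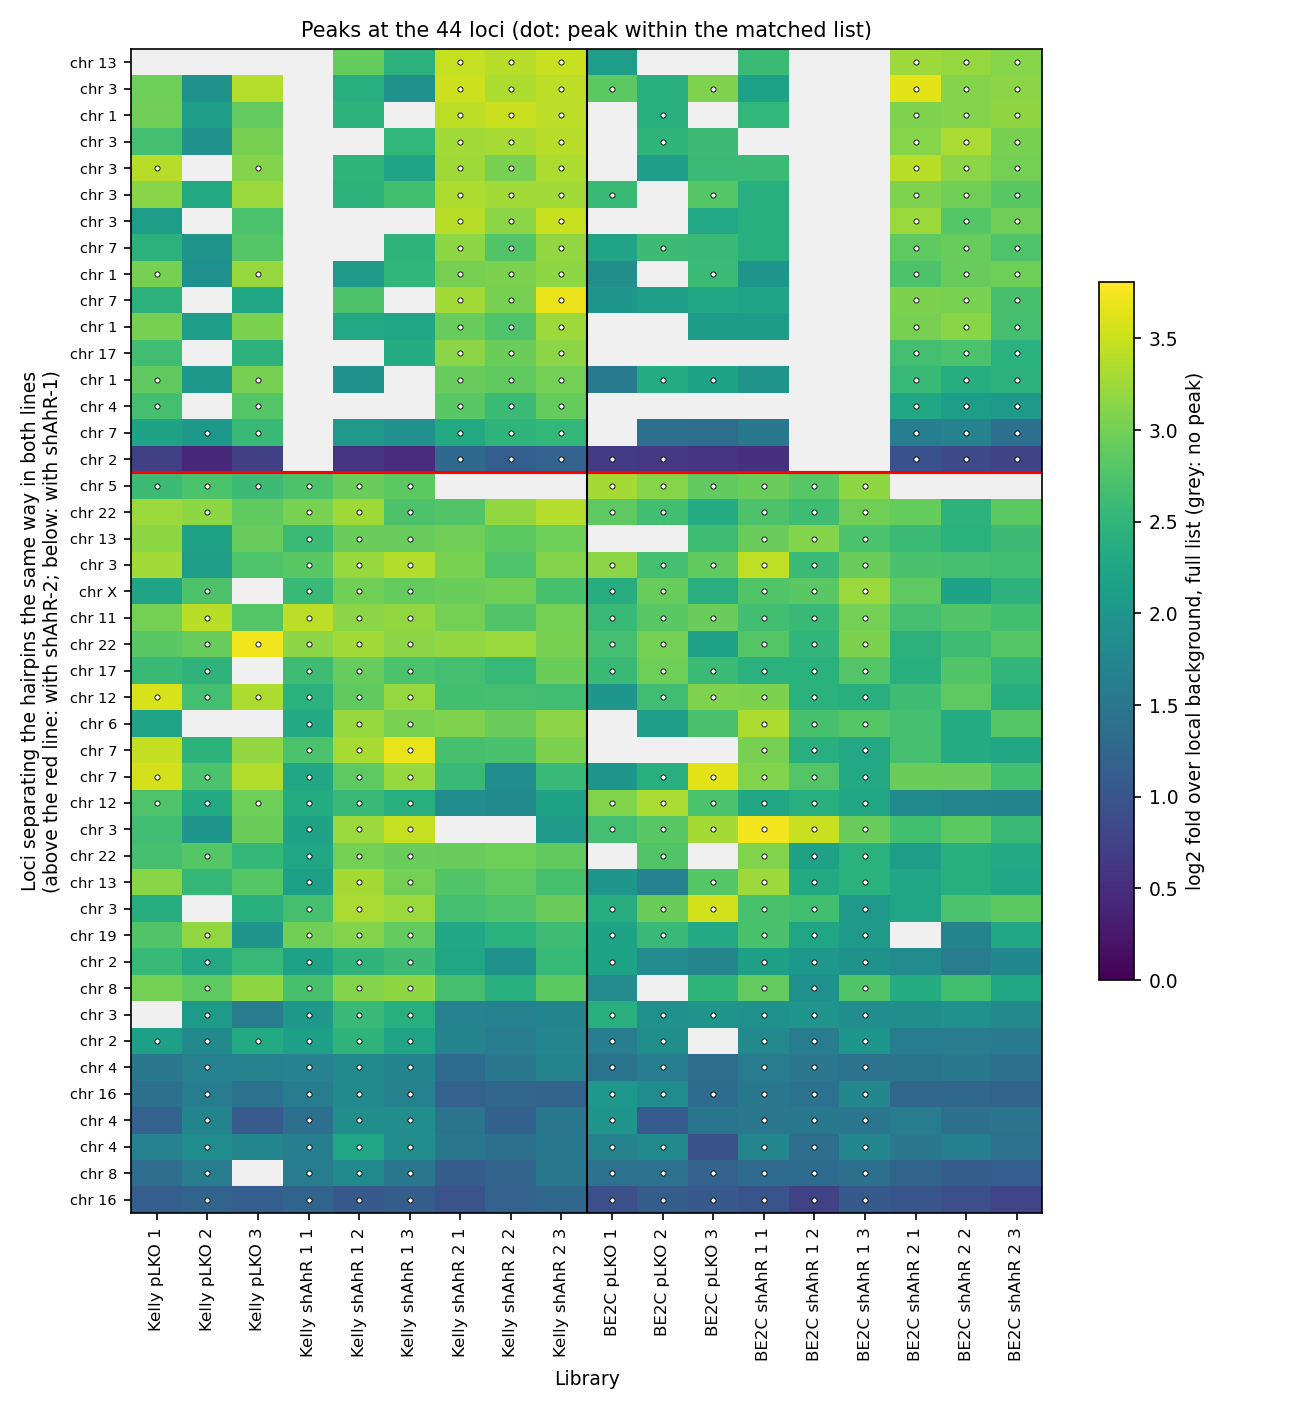
Fold over local background (log2, colour; grey, no peak in the full list) at the 44 loci that separate the hairpins in the same direction in both lines (lines of the map, named by chromosome) in the 18 libraries (columns). A dot marks a peak within the shortened list. Above the red line are the 16 loci with the peak in shAhR_2, and below it the 28 with the peak in shAhR_1. Of these 28, 25 have a peak ranked below the cut in the full lists of all shAhR_2 libraries.

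Presence uses only the end of each list, so the strength of each region was also compared. Every peak was scored by its rank, as log2 of the list length plus 1 over the rank, with 0 for a library without the peak, and a shift of 1 in the mean score means a rank closer to the top by a factor of 2. The 26713 regions with a peak in at least 3 of the 12 lists were fitted with limma. A region was called when the mean shift over both lines passed an adjusted p of 0.05 and had the same sign in each line. The mean shift passed at 7168 regions (26.8%), and 3935 (14.7%) of those tested were called, 2304 (8.63%) higher with shAhR_2 and 1631 (6.11%) higher with shAhR_1. The split depended on the scale of the scores: normal scores of the ranks gave 1760 and 2701, ranking by fold gave 2561 and 3165, and blocking on the replicate number gave 3060 and 1543. Without Kelly shAhR_1 replicate 1 the calls rose to 7437 of 31681 regions (23.5%), 4282 with shAhR_2 and 3155 with shAhR_1. Of the 44 loci above, 42 were among the calls. This is largely given by their choice, since they come from the same shortened lists and a library without the peak scores 0.

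The lines, read separately, leaned the same way. In Kelly 975 regions (3.65%) passed limma's adjusted p of 0.05, and in BE2C 9467 (35.4%). Many of the latter had no hairpin peak in Kelly: 3210 of the 5493 higher with shAhR_2 and 2151 of the 3974 higher with shAhR_1. All Kelly scores are 0 there and add no spread, so the estimate that both lines share can be too small for BE2C. Of the 566 Kelly regions higher with shAhR_2, 457 were also higher in BE2C and 67 were lower, and the remaining 42 had no hairpin peak there. That is 87.2% of those with a shift in BE2C, where 68.2% of all regions with a shift in both lines had the same sign. Of the 409 higher with shAhR_1, 303 leaned the same way in BE2C and 58 the opposite way (83.9%). Without Kelly shAhR_1 replicate 1 the calls were 5575 in Kelly (17.6%) and 6064 in BE2C (19.1%). The Kelly cut and the regions tested changed with it, and both lines share 1 estimate of the spread. What moved the calls was not tested. Without that library, 1981 of 2389 Kelly calls with shAhR_2 and a shift in BE2C had the same sign there (82.9%). For shAhR_1 it was 1575 of 2124 (74.2%), beside 67.6% of all regions with a shift in both lines. With all 12 libraries, calls of the same direction in both lines numbered 247 with shAhR_2 and 144 with shAhR_1, and calls of opposite direction 11 and 6. The former are 43.6% of the 566 and 35.2% of the 409 Kelly calls. Of all 26713 regions, BE2C called 5493 higher with shAhR_2 and 3974 higher with shAhR_1. Without that library they were 643 of 3196 and 419 of 2379 Kelly calls, against 18 and 58 of opposite direction. BE2C then called 19.1% of all regions, both directions together. The shift itself differed between the lines (limma, adjusted p under 0.05) at 3502 regions (13.1%), or 2767 (8.73%) without that library. The unlike list lengths of the lines limit this count, since a score of 0 falls at unlike depths. The agreement was as high away from high local background and peak-free stretches for shAhR_2 (87.6%) and somewhat lower for shAhR_1 (79.7%).

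**Figure D4:**
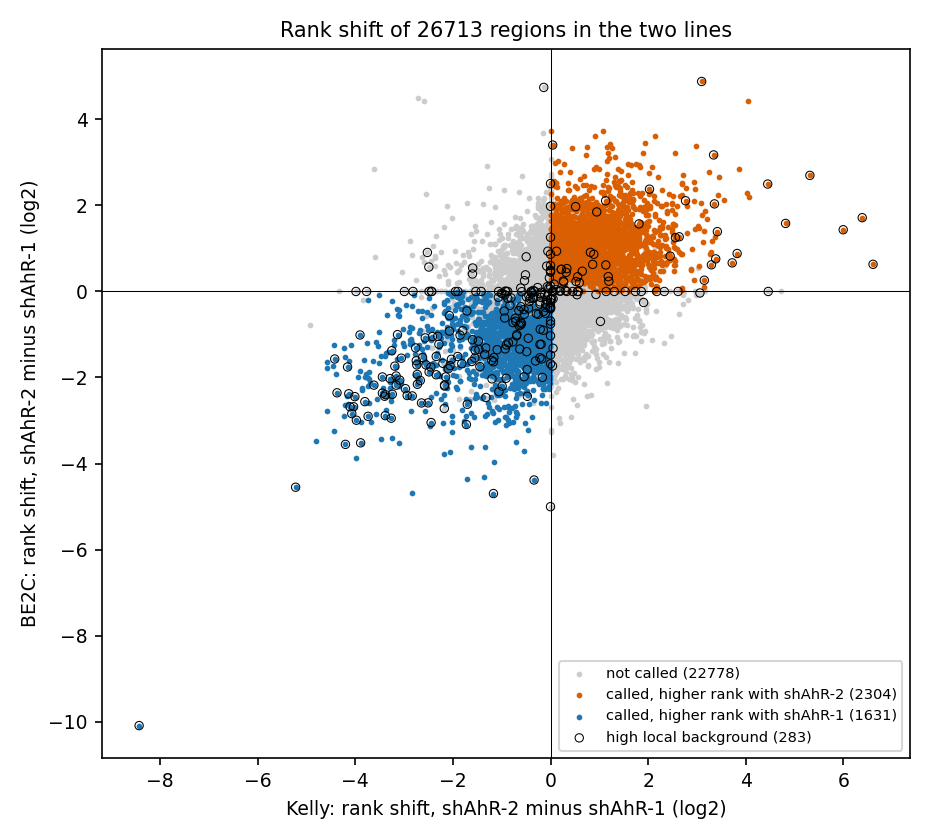
Rank shift (log2, shAhR_2 minus shAhR_1) of 26713 regions in Kelly (horizontal axis) and BE2C (vertical axis), each point 1 region; orange and blue mark the 2304 and 1631 regions called higher with shAhR_2 and shAhR_1, and circles the 283 at high local background. The point at lower left, far from the rest, is the lost peak on chromosome 5, with shifts of −8.43 and −10.09.

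The largest shift of any region was that of the lost peak at chr5:134262717-134263068, −8.43 ± 0.33 in Kelly and −10.09 ± 0.33 in BE2C (SE; limma, adjusted p = 4.99e-10 for the mean of both). Its neighbours, of which 2 kept the call without Kelly shAhR_1 replicate 1, shifted by −0.48, −2.41 and −0.78 over both lines, with adjusted p-values of 0.021, 1.9e-04 and 0.0111 from limma. The peak at chr4:49316844-49317356 rose in rank with shAhR_2 by 6.39 ± 0.23 in Kelly and 1.72 ± 0.23 in BE2C (SE; limma, adjusted p = 6.26e-08). A hairpin with no peak in any library of a line has no spread in its scores there, so the errors of these 2 loci rest partly on the spread of other regions. The same limit holds at every other locus where a group has no peak.

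Among the lowest adjusted p-values of regions higher with shAhR_2, 3 lay within a single megabase on the short arm of chromosome 2: chr2:16189491-16191860, chr2:16152693-16154839 and chr2:16462729-16463715. At the first, the fold was 3.84, 3.40 and 3.65 with shAhR_2 and 1.77, 1.81 and 1.8 with shAhR_1 in Kelly, and 3.49, 3.42 and 2.95 against 2.72, 2.13 and 2.01 in BE2C. With pLKO it was 2.62, 1.75 and 2.33 in Kelly and 1.98, 2.20 and 2.68 in BE2C. The shAhR_2 values lay above all others in both lines, and the pLKO values lay near or above the shAhR_1 values in Kelly. The shift was 5.31 ± 0.32 in Kelly and 2.70 ± 0.32 in BE2C (SE; limma, adjusted p = 3.7e-06).

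The 3 belong to a stretch from 15834281 to 16840793 on chromosome 2, where local background was 101 times the genome-wide value in the median region. MYCN, the transcription factor gene amplified in many neuroblastomas, lies on the short arm of chromosome 2; gene positions on this build were not used here. Of 95 regions tested in the stretch, 21 were called higher with shAhR_2 and 3 higher with shAhR_1. Without Kelly shAhR_1 replicate 1, where the Kelly lists were cut at 23806 peaks, it was 22 and 23 of 140. The lean of the stretch to shAhR_2 was thus not seen in that setting, while the 3 loci named kept their calls. Whether the library, the cut or the added regions moved the counts was not tested. Relative to the genome-wide background, which was itself higher with shAhR_2, the local background under the peaks moved the other way. Over the genome-wide background it was 117.6, 137.3 and 137 with shAhR_1 and 81.7, 82.5 and 93.5 with shAhR_2 in Kelly, and 84.4, 100.4 and 108.5 against 62.8, 65.5 and 67.5 in BE2C. With pLKO it was 100.1 to 130.9 and 82.9 to 112. No shAhR_2 library reached the lowest shAhR_1 or pLKO library of its line, and the ratio of the hairpins was 0.664 (exact permutation test, p = 0.005). The median fold of the peaks called in the stretch overlapped between the hairpins, at 1.56 to 1.59 with shAhR_2 and 1.5 to 1.74 with shAhR_1 in Kelly, and 1.68 to 1.8 against 1.59 to 1.77 in BE2C.

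The 2 other loci named for shAhR_2 in this way were the chromosome 4 peak above and chr1:182758113-182759278. At the latter, the fold was 11.2, 10.8 and 12.7 with shAhR_2 in Kelly, against 6.80 and 6.89 in shAhR_1 replicates 2 and 3 and no peak in replicate 1. In BE2C it was 11.8, 11.4 and 10.4 against 12.1, 8.32 and 8.45, which overlap. The pLKO libraries had 9.97, 4.54 and 10.9 in Kelly and 10.4, 11.3 and 12.9 in BE2C. The shift in rank was 3.21 ± 0.29 in Kelly and 1.68 ± 0.29 in BE2C (SE; limma, adjusted p = 9.14e-05), although fold separated the hairpins only in Kelly.

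Regions higher with shAhR_1 were led, after the chromosome 5 peak, by chr1:564483-565387 (limma, adjusted p = 2.55e-05), chr3:125634332-125636113, chr1:565638-566870 (limma, adjusted p = 1.0e-04), chr3:129829663-129831415 and chr21:10702035-10703449. The 2 on chromosome 1 belong to 4 regions between 564483 and 570257, also known as a nuclear copy of mitochondrial DNA, and all 4 were called lower with shAhR_2. At the first, the fold was 3.99, 4.44 and 3.69 with shAhR_1 and 2.84, 2.68 and 3.02 with shAhR_2 in Kelly, and 3.88, 3.34 and 4.32 against 3.15, 3.1 and 2.89 in BE2C. The pLKO libraries, with 3.45 to 3.77 and 3.68 to 4.72, lay above every shAhR_2 library of their line. Local background in this stretch was 1538 times the genome-wide value in the median region. Its highest pileup over the genome-wide background was 0.35 times as high with shAhR_2 (exact permutation test, p = 0.005), beside 0.341 times for the mitochondrial ratio. Both ratios have as divisor the genome-wide background, itself 2.53 times as high with shAhR_2, so they are not independent of it. Before division, the pileup at the first region in Kelly was 8212 to 9380 overlapping reads with shAhR_2 and 8807 to 10921 with shAhR_1. In BE2C it was 7886 to 8765 and 8855 to 12434. The part of mitochondrial reads in these calls was not tested.

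The pair on chromosome 3 lay outside such stretches. At chr3:125634332-125636113 the fold was 7.94, 9.47 and 8.22 with shAhR_1 and 6.75, 6.63 and 7.42 with shAhR_2 in Kelly, and 9.67, 7.55 and 7.79 against 5.49, 5.16 and 5.15 in BE2C. With pLKO it was 9.46, 7.99 and 10.3 in Kelly and 11.8, 11.6 and 10.6 in BE2C. At chr3:129829663-129831415 the fold was 7.80, 8.93 and 8.62 with shAhR_1 and 6.31, 6.25 and 7.09 with shAhR_2 in Kelly, and 10.9, 8.48 and 8.23 against 6.18, 5.99 and 5.72 in BE2C. With pLKO it was 8.76, 7.18 and 9.81 in Kelly and 13.4, 12.7 and 11 in BE2C. At both, all shAhR_2 values lay below all shAhR_1 and pLKO values of the line. The shifts over both lines were −2.64 ± 0.21 and −2.98 ± 0.26 (SE; limma, adjusted p = 7.05e-05 and 1.0e-04), and the local background was 7.65 and 9.17 times the genome-wide value.

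The last of these, chr21:10702035-10703449, lay near the peak-free stretch of chromosome 21. Its folds with shAhR_1 and shAhR_2 were 6.08 to 6.47 and 4.58 to 5.74 in Kelly, and 3.93 to 5.03 and 3.58 to 3.85 in BE2C. The shift was −2.45 ± 0.22 (SE; limma, adjusted p = 1.43e-04), and it lost its call when lists were cut by fold (−0.36, limma adjusted p = 0.211).

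Sequence of high local background leaned towards shAhR_1. Of 283 such regions in the fit, 89 (31.4%) were called higher with shAhR_1 and 35 (12.4%) with shAhR_2, against 5.65% and 8.4% of the 25206 regions neither there nor near a peak-free stretch. Without Kelly shAhR_1 replicate 1 it was 113 and 34 of 336. Stretches of at least 4 such regions numbered 18, and 13 of them lay near the longest peak-free stretch of their chromosome. Those 13 held 141 regions, of which 67 were called higher with shAhR_1 and 4 with shAhR_2 (71 and 3 of 143 without that library). The largest, on chromosome 4 from 49093405 to 49656026, had 23 of 38 regions higher with shAhR_1 and 1 higher with shAhR_2, the peak described above. On chromosome 16 from 46386414 to 46435537 it was 12 of 17 and 0. On chromosome 10 from 42355421 to 42600457 it was 8 of 24 and 3 (5 of 26 and 2 without that library). A stretch on chromosome 1 from 161416730 to 161440983 went against this, with all 4 of its regions higher with shAhR_2, also without that library. The share of the shortened list at high local background was lower with shAhR_2, 2.29% ± 0.0547 against 3.55% ± 0.38 for the Kelly libraries and 0.916% ± 0.0689 against 1.14% ± 0.239 for those of BE2C (SD, n = 3; exact permutation test, adjusted p = 0.015 over 3 added measures). The parts of depth and of mitochondrial reads in this were not tested.

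**Figure D5:**
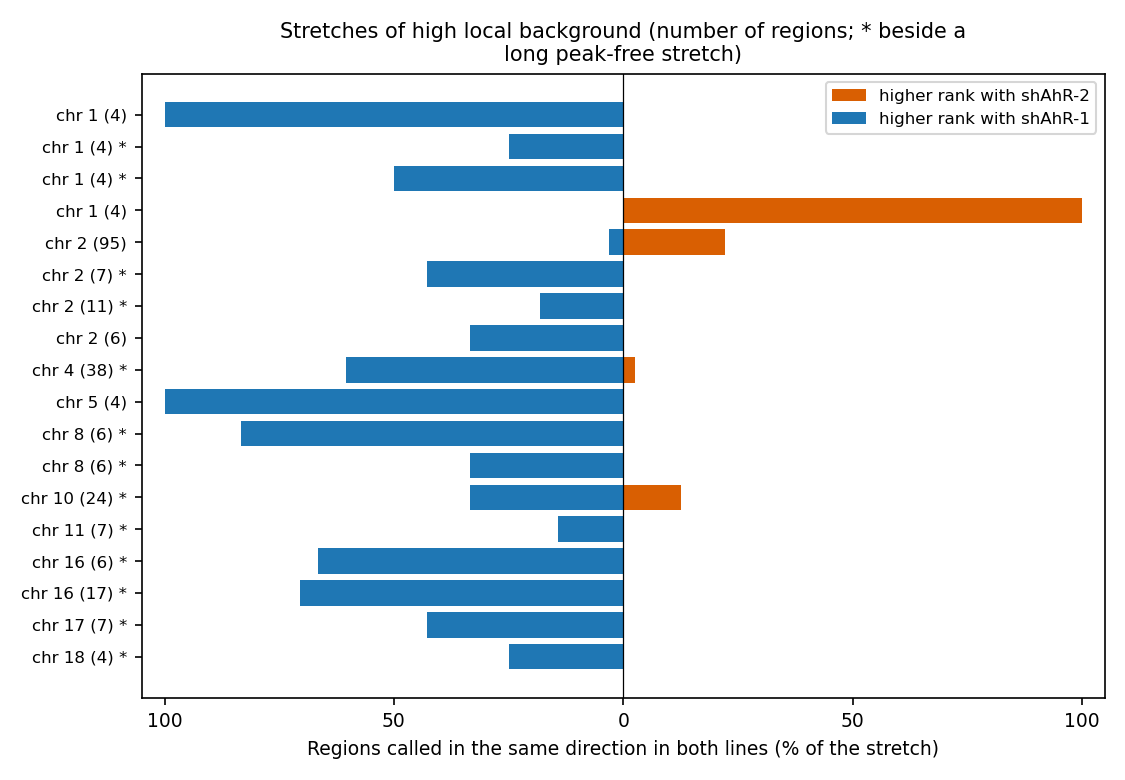
Share of the regions of each stretch of high local background that were called in the same direction in both lines (percent of the stretch; orange to the right, higher with shAhR_2; blue to the left, higher with shAhR_1). Stretches are named by chromosome with their number of regions, and an asterisk marks the 13 near a long peak-free stretch; with all 12 libraries 2 stretches, on chromosomes 1 and 2, lean to shAhR_2, and that on chromosome 2 does not without Kelly shAhR_1 replicate 1 (22 and 23 of 140 regions).

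The empty vector stood nearer to shAhR_1 at most regions called higher with shAhR_2. Measured by mean rank score, pLKO was closer to shAhR_1 than to shAhR_2 at 1690 of those 2304 regions in Kelly (73.4%) and at 1831 in BE2C (79.5%). At the 1631 regions called higher with shAhR_1 it was closer to shAhR_1 at 817 in Kelly (50.1%) and 1113 in BE2C (68.2%). Without Kelly shAhR_1 replicate 1 the shares were 70.9% and 77.7% for shAhR_2, and 52.1% and 57% for shAhR_1. Among all 26713 regions pLKO was closer to shAhR_1 at 62.3% in BE2C and 26.9% in Kelly. In Kelly 6573 regions were closer to shAhR_2 and the others were at equal distance. The pLKO libraries were also nearer to shAhR_1 in mean genome-wide background. In Kelly it was 1.65 with pLKO, 1.10 with shAhR_1 and 2.78 with shAhR_2, and in BE2C 1.62, 1.60 and 3.79. Its part in these shares was not tested.

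Some loci separated the hairpins by presence in 1 line only. In Kelly those with shAhR_2 were led by chrX:47862884-47864003, chr10:106050911-106051685 and chr19:58144162-58145309, with folds of at least 13.0, 12.6 and 12.4 in the 3 shAhR_2 libraries. At each of them the full lists of all BE2C shAhR_2 libraries held a peak as well, and so did that of BE2C shAhR_1 replicate 1. Presence and rank differed at 2 of them: the shift was 0.55 in Kelly (limma, adjusted p = 0.501) and 1.18 in BE2C (adjusted p = 0.00685) at chrX:47862884-47864003. At chr10:106050911-106051685 it was 0.64 (limma, adjusted p = 0.492) and 1.70 (adjusted p = 0.00193). Those with shAhR_1 were led by chr12:2364958-2365218, chrX:136520403-136520597 and chr12:212621-213107. At the last, the fold was 9.86, 9.71 and 10.5 with shAhR_1, 8.57, 5.61 and 6.75 with shAhR_2 and 13.6, 11.7 and 15 with pLKO, so shAhR_2 lay lowest.

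In BE2C the loci with shAhR_2 were led by chr4:86717702-86718703, chr5:90397334-90398287 and chr2:188722248-188723232, with folds of at least 11.7, 11 and 10.9. Those with shAhR_1 were led by chr5:122990625-122990935, chr6:126709035-126710001 and chr12:102799733-102800128. At chr6:126709035-126710001 the fold was 12.5, 8.32 and 7.82 with shAhR_1, 7.14, 6.27 and 5.49 with shAhR_2 and 5.97, 7.21 and 8.05 with pLKO in BE2C. No hairpin library of Kelly had it in its shortened list.

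No chromosome passed the test for a different share of peaks, but a lone chromosome could not have passed it. The smallest p that the exact permutation test allows, 0.005, becomes 0.115 when only 1 of the 23 chromosomes reaches it. The share of the shortened list on a chromosome differed between hairpins at 0 of 23 chromosomes (0%) in exact permutation tests with adjustment over 23, the lowest adjusted p being 0.115, and 6 chromosomes had an unadjusted p under 0.05. Full lists gave 13 chromosomes, 4 with a higher share in shAhR_2 and 9 with a lower one.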

How the data were processed

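ATAC-seq was run on 18 libraries of Kelly and BE2C cells, each with 30 min of transposase and 10 PCR cycles, per the labels' protocols. Per the submitters' processing notes the build was hg19 and the tools included MACS2 2.1.0, deepTools 3.1.3, BWA 0.7.17, Trimmomatic 0.33 and CASAVA 1.8.2. For their settings, any shift of read ends and any removal of duplicate or mitochondrial reads, the answer is not given in the sources used here. The authors deposited 1 peak list per library with an integer score, a fold (linear ratio over local background), and −log10 p-values and −log10 q-values for each peak. Fold and −log10 p are the authors' values and were used to describe, rank and filter peaks. Read depth is unknown.

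Only chromosomes 1 to 22 and X entered the comparisons. Pileup and background were solved from fold and −log10 p, with fold as pileup plus 1 over background plus 1 and a Poisson p. Local background was called high at 20 times the genome-wide value (the lowest local one) or more, and near a peak-free stretch means within 3 Mb. Regions were merged at an overlap of 1 bp. Library values were tested on the log2 scale with exact permutation within lines and Benjamini-Hochberg adjustment, and rank scores with limma 3.58.1 (R 4.3.3; Python 3.11.15 otherwise) with an intensity trend; the functions were tested on simulated data. Named loci are up to 10 per direction found in both lines, by the lowest fold, then up to 5 per direction by limma's adjusted p, then up to 3 per line and direction found in 1 line. Members, lists and rules were chosen with earlier results of these data known. Alternatives were other ways to cut the lists, to define presence and to score ranks, and leaving out each library. The tables of genes in hand are on another build, so gene names, promoter shares, gene lists and cell type markers were not used here, and loci on chromosome 8 were counted but not named. Stretch values, the reading of 1 line in the other and values without the short list were added after the data were seen.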

Additional observations from a re-analysis of the deposited data

Results flagged for a closer look

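The shift in rank differed between the lines (limma, BE2C minus Kelly, adjusted p under 0.05) at 3502 of 26713 regions (13.1%). Of these, 2351 had no peak in any hairpin list of 1 line, 616 had opposite signs and 535 had the same sign. The lists were cut at 9204 peaks in Kelly and 25660 in BE2C, so a score of 0 stands for unlike depths in the lines. How far that makes the shifts differ was not tested. Without Kelly shAhR_1 replicate 1, with cuts at 23806 and 25660, the count was 2767 of 31681 regions (8.73%). At 8 loci named for both lines the direction was shared and the size differed. The difference was −1.66 at chr5:134262717-134263068, −0.71 at chr6:145924241-145925001, −4.67 at chr4:49316844-49317356 and −1.53 at chr1:182758113-182759278. On chromosome 2 it was −2.62 at chr2:16189491-16191860, −4.56 at chr2:16152693-16154839 and −1.95 at chr2:16462729-16463715, so the shAhR_2 advantage there was larger in Kelly. At chr21:10702035-10703449 it was 1.89.

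At 6 loci chosen because they separated the hairpins in 1 line only, a difference between lines is partly given by the choice. It was 2.74 at chr12:212621-213107, 1.29 at chr4:86717702-86718703, 1.05 at chr5:90397334-90398287, 0.80 at chr2:188722248-188723232, −1.85 at chr6:126709035-126710001 and −1.51 at chr12:102799733-102800128.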

How the results depend on the processing

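The counts of separating loci depended on how lists were cut and on what counted as presence; the cause was not tested except where fewer or longer lists are the alternative itself. Cut by fold, the counts were 2112 in Kelly, 3979 in BE2C and 219 in both lines (59 with shAhR_2, 160 with shAhR_1). Full lists gave 17999, 16737 and 4318 (4317 and 1), while those limited to −log10 q values of 5 or more gave 15266, 15095 and 4139. With peaks covering at least 50% of a region they were 2458, 4214 and 221 (210 and 11), and with 2 of 3 libraries 2611, 4885 and 144 (44 and 100). The same list length in both lines, added after the data were seen, gave 94 in both (61 and 33). Leaving out 1 library gave 1157 to 4787 in Kelly, 2115 to 3694 in BE2C and 41 to 358 in both; the highest in Kelly and in both came without Kelly shAhR_1 replicate 1, and without BE2C shAhR_1 replicate 1 they were 3694 in BE2C and 75 in both. Calls by rank ranged from 2804 to 7437 over left-out libraries, the highest without Kelly shAhR_1 replicate 1. Chromosomes past the threshold were 13 with full lists and 0 to 5 over left-out libraries. The difference in median fold on the log2 scale was 0.34 to 0.49 over left-out libraries, and did not pass without Kelly shAhR_2 replicate 3 or BE2C shAhR_2 replicates 1 or 2 (exact permutation test, highest adjusted p 0.06). The other 5 library measures and the similarity within hairpins kept direction and call when any 1 library was left out. Of 764 values at the 42 named loci, 719 kept direction and call, 41 lost the call, 4 gained it and 0 reversed. Both were kept in all settings run at 30 loci. The loci were named from these same libraries, so keeping the call is partly given by the choice. By presence, 4 of the 16 and 5 of the 28 were found again when lists were cut by fold. Without Kelly shAhR_1 replicate 1 it was 2 and 5. Same-numbered libraries did not deviate together (correlations of residuals 0.00889 to 0.0844), and 4 of 6 shAhR_1 libraries correlated best with the shAhR_2 library of their own number. A fit with the replicate number as a block gave 4603 calls against 3935. Depth limits every statement on a missing peak, which says only that no peak passed. The promoter share was not run.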
